A study of Homo sapiens with 24 samples.

Results

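Transcripts of 8 peptidase genes, ANPEP, DPP4, MME, ENPEP, ECE1, LNPEP, ERAP1 and ERAP2, were followed through parental and giant cells of the human prostate cancer line PPC1. The genes were picked by symbol, with measured values of these libraries already known, from a table of read counts that lists 48162 genes, and all 8 symbols were found in it. Which value led to each gene being picked was not recorded, so differences of these 8 genes between parental and giant cells are given below as a description, without a p-value, and counts past a threshold are given only beside the share of all genes past it. The gene positions in the table are on the human build hg19. The 4 conditions had 6 libraries each, 24 in all. Untreated parental PPC1 cells (UT) were harvested on day 5. Parental cells with the drug (UT_LCL) received 5 µM LCL521, an inhibitor of the lysosomal enzyme acid ceramidase, for 5 h before harvest. Polyploid giant cancer cells (PGCC), enlarged cells with multiplied genomes that form under therapy stress, came from plates that received 8 Gy of radiation on day 2, and were retained on a 20 micron cell filter on day 5. PGCC with LCL521 (PGCC_LCL) were made in the same way and exposed to 5 µM of the drug for 5 h before harvest. Parental cells were neither irradiated nor filtered, so radiation, the selection for size and the giant state cannot be told apart. The design describes 6 independent runs of the experiment, with all 4 conditions harvested in parallel each time. PPC1 is a single line, and no other line was sequenced in these libraries.

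Peptidases at the cell surface cut short peptides outside the cell, and so end or change the signals of peptide hormones, cytokines and chemokines. In the prostate the proteins CD13 (ANPEP), CD26 (DPP4) and CD10 (MME) are known from the surface of luminal epithelial cells, and CD13 and CD26 are also carried by several kinds of leukocyte. A common name such as cell surface aminopeptidases and dipeptidases covers only part of the group. ANPEP and ENPEP (aminopeptidase A, which trims angiotensin II) are aminopeptidases of the surface. LNPEP, also called insulin-regulated aminopeptidase, cycles between vesicles and the surface. ERAP1 and ERAP2 are aminopeptidases inside the endoplasmic reticulum, where they trim peptides for MHC class I. DPP4 is a serine protease that removes dipeptides from the N-terminus. MME (neprilysin) and ECE1, which releases endothelin from its precursor, are endopeptidases.

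Total counts lay between 14835246 and 19906601 per library, and 3 counts, taken as the limit of detection, corresponded to 0.150 to 0.208 CPM, the count scaled to a common library size. CPM values were scaled by TMM, a factor that corrects for differences in library composition, and RPKM values were CPM per kilobase of the gene length in the table. The libraries of replicates 4 and 5, 8 in all, stood apart from the other 16 on the second principal component (16.3% of the variance), so values are also given without them. Markers of prostate luminal cells were mostly missing. KLK3, KLK2 and FOLH1 had 0 counts in all 24 libraries, TMPRSS2 had at most 2 counts in any, and HOXB13 reached 745 ± 112 CPM in UT and 427 ± 85.0 CPM in PGCC (SD, n = 6). The epithelial keratins KRT8 and KRT18 were present in every library, and EPCAM had at most 17 counts. These are bulk libraries in which fewer cells with a transcript and less of it per cell cannot be told apart, and the amount of RNA per cell was not measured.

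The leading members differ in the DNA before their start sites. RefSeq promoter sequences on build GRCh38 were at hand for 8 of 8 genes, with 18 start sites in all, and 250 bases upstream of each were searched on both strands for 7 motifs. These were the GC box (GGGCGG), the CCAAT box (CCAAT), the TATA box (TATAAA), the AP-1 site (TGANTCA, N being any base), the interferon response element (GAAA, any 2 bases, GAAA), the NF-kappaB site (GGG, any 2 bases, TTTCC) and the HNF1 site (GTTAAT, any 1 base, ATTAAC). Stretches are shown for the 3 genes with the largest differences, 5′ to 3′ along the gene, with matches in capitals. Bases that GENCODE places in an exon were left out, except in the pair of short stretches, whose whole windows lie in annotated exons.
ANPEP, first start, chr15:89814865-89815102, minus strand: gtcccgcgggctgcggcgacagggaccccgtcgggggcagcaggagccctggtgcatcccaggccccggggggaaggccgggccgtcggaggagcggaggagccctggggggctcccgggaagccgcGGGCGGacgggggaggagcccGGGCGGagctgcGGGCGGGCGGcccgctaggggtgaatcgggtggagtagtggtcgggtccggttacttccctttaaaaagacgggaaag
DPP4, only start listed, chr2:162074251-162074280, minus strand: gctgCCGCCCagcgccctacaCCGCCCtca
ERAP2, first start, chr5:96875734-96875938, plus strand: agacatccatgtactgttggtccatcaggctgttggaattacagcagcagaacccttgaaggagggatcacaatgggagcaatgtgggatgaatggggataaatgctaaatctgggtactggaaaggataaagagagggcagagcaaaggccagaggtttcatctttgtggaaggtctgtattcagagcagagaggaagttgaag
ERAP2, second start, chr5:96876460-96876489, plus strand: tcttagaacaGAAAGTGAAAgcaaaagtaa
The ANPEP window held 4 GC boxes, the last 2 of which overlap, and the DPP4 window held 2 on the opposite strand. The window of the second listed ANPEP start, not shown, held none of the motifs. A GC box was found in 42.6% of 35116 RefSeq promoter windows of the same length. Among the other members, LNPEP, MME and ECE1 also had windows with GC boxes, while no ENPEP or ERAP1 window had one. The first ERAP2 window held none of the motifs, and the second held a single interferon response sequence that begins 30 bases before the start site. That sequence was present in 3.02% of promoter windows. These matches are letters only: the counts are per gene and do not show which start was used.

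ANPEP (ENSG00000166825, chr15:90328120-90358633, minus strand, hg19), which encodes the zinc aminopeptidase CD13, was higher in PGCC. In UT its lowest, median and highest levels were 85.0, 92.9 and 104 CPM, and in PGCC they were 297, 334 and 367 CPM. The lowest PGCC library therefore stood well above the highest UT library, and the groups did not overlap. The fitted difference was a log2 fold change of 1.85 ± 0.08 (SE, n = 6 per group), a 3.60-fold higher level. The same-numbered libraries differed by 1.62 to 1.96 on the log2 scale, and all 6 pairs had the higher level in PGCC. Without replicates 4 and 5 the log2 fold change was 1.87. Between the drug-treated populations it was 1.91 ± 0.10, between 91.0 ± 13.2 CPM in UT_LCL and 337 ± 19.5 CPM in PGCC_LCL (SD, n = 6).

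DPP4 (ENSG00000197635, chr2:162848751-162931052, minus strand, hg19), the surface protease CD26 that inactivates incretin hormones, was also higher in PGCC. Its lowest, median and highest levels were 79.8, 92.9 and 119 CPM in UT and 160.3, 194 and 208 CPM in PGCC. Again no PGCC library fell within the range of UT. The log2 fold change was 0.95 ± 0.11, or 1.93-fold, with pair differences between 0.65 and 1.23, and 1.03 ± 0.10 with LCL521 in both populations. Replicates 4 and 5 gave a mean pair difference of 0.94 on the log2 scale and the other 4 replicates 0.96.

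Because leukocytes carry both proteins, 4 leukocyte markers (PTPRC, CD3E, CD14 and LYZ) were measured beside them. Their summed level lay between 0.464 and 2.97 CPM in UT and between 3.00 and 4.71 CPM in PGCC, ranges that did not overlap. Most of the sum was PTPRC, with 6 to 47 counts in UT and 42 to 70 in PGCC. The T cell marker CD3E had 0 counts in every UT and PGCC library, and LYZ had 0 counts in UT and 3 to 5 in PGCC. Fibroblast markers, of which COL1A1 made up most, summed to 5.74 to 13.2 CPM in UT and 5.52 to 8.96 CPM in PGCC, while LUM alone had 0 to 2 counts in UT and 4 to 11 in PGCC, without overlap, and DCN 0 to 1 and 0 to 3. The 2 endothelial markers found in the table, VWF and CDH5, summed to 0 to 1.34 and 0.363 to 1.01 CPM. The part of these signals in the ANPEP and DPP4 levels was not tested.

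**Figure D1:**
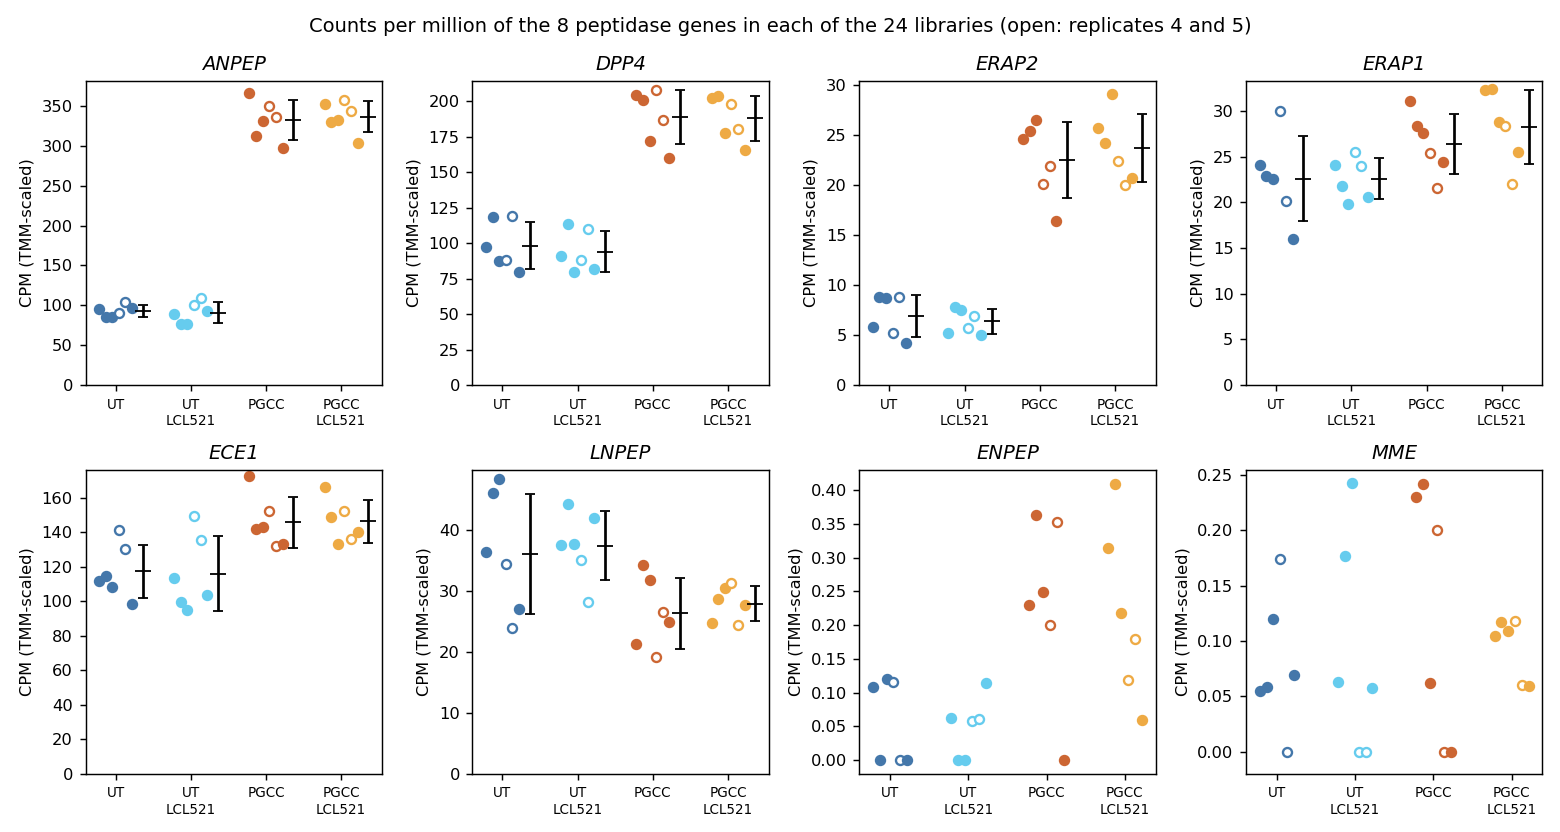
Levels of the 8 genes in CPM (TMM-scaled; vertical axis, linear, a scale of its own per gene) in the 24 libraries, by condition. Each point is 1 library, open points are replicates 4 and 5, and bars are the mean ± SD of 6 libraries, left out for ENPEP and MME. ANPEP, DPP4 and ERAP2 show no overlap between parental and giant cells, while ENPEP and MME stay under 0.5 CPM throughout.

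ERAP2 and ERAP1 are paralogs that lie next to each other on chromosome 5 in opposite orientation, and both trim peptides in the endoplasmic reticulum. ERAP2 (ENSG00000164308, chr5:96211643-96255420, plus strand, hg19) had lowest, median and highest levels of 4.15, 7.24 and 8.81 CPM in UT and 16.4, 23.3 and 26.4 CPM in PGCC. Both groups were spread widely for their level, but they did not overlap. The log2 fold change was 1.71 ± 0.20, or 3.27-fold, with pair differences from 1.31 to 2.06, and 1.92 ± 0.14 with LCL521 in both populations. Without replicates 4 and 5 it was 1.77 between UT and PGCC.

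ERAP1 (ENSG00000164307, chr5:96096521-96143803, minus strand, hg19) had lowest, median and highest levels of 16.0, 22.7 and 30.04 CPM in UT and 21.6, 26.5 and 31.1 CPM in PGCC, so that most of the PGCC range lay inside that of UT. Its log2 fold change was 0.23 ± 0.14 and its same-numbered pairs differed by −0.24 to 0.61, with 5 of 6 higher in PGCC. Replicates 1, 2, 3 and 6 differed by 0.39 on average and replicates 4 and 5 by −0.07. With LCL521 in both populations the log2 fold change was 0.35 ± 0.11, again carried by replicates 1, 2, 3 and 6 (mean 0.46, against 0.01 in replicates 4 and 5). The ERAP1 gene body shares 18779 bases with CAST on the opposite strand, which had 597 to 1991 counts per library. The strand setting of the counting is not given in the sources used here, so reads of the shared stretch may have been assigned to either gene or to none. The same holds for ERAP2, whose whole gene body of 43778 bases lies in CTD-2260A17.2 on the opposite strand, with 0 to 9 counts per library.

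As the levels per kilobase show, ERAP2 and ERAP1 stood at a mean RPKM ratio of 0.301 ± 0.099 in UT and 0.822 ± 0.122 in PGCC (SD, n = 6). The ratio ranged from 0.165 to 0.420 in the UT libraries and from 0.646 to 0.978 in the PGCC libraries. By these counts ERAP2 was thus the lower of the pair in every one of those libraries, by a smaller margin in PGCC. The part of the overlapping genes in the ratio was not tested. The corresponding ratio of ANPEP to DPP4 was 1.02 ± 0.17 in UT and 1.88 ± 0.14 in PGCC, with ranges of 0.768 to 1.28 and 1.65 to 2.04.

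**Figure D2:**
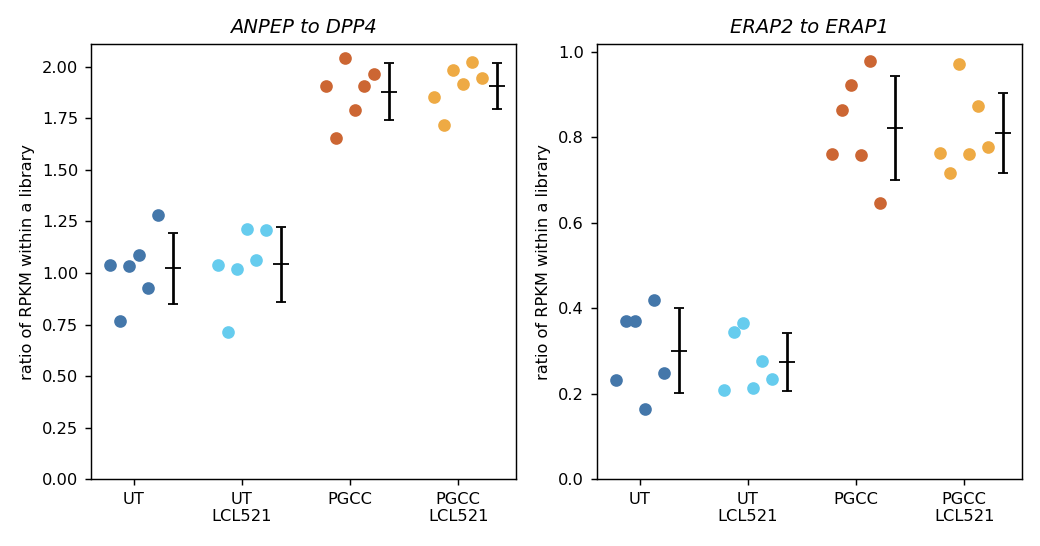
Ratio of RPKM levels within each library (vertical axis, linear, no unit) for ANPEP to DPP4 and for ERAP2 to ERAP1, by condition. Points are libraries and bars the mean ± SD of 6. Both ratios lie higher in every giant cell library than in any parental library, and ERAP2 to ERAP1 stays under 1 in all 24.

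LNPEP (ENSG00000113441, chr5:96271098-96373219, plus strand, hg19) lies downstream of ERAP2 and belongs to the same M1 family of zinc aminopeptidases, yet it was lower in most PGCC libraries. Its lowest, median and highest levels were 23.9, 35.4 and 48.5 CPM in UT and 19.1, 25.8 and 34.2 CPM in PGCC, with overlapping ranges. The log2 fold change was −0.44 ± 0.19, and 5 of 6 pairs were lower in PGCC, from −0.85 to 0.16. A fit blocked on the replicate number gave −0.43 ± 0.13. Between UT_LCL and PGCC_LCL the log2 fold change was −0.40 ± 0.11 and all 6 pairs were lower, by −0.62 to −0.17.

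ECE1 (ENSG00000117298, chr1:21543740-21671997, minus strand, hg19) had lowest, median and highest levels of 98.6, 113 and 141 CPM in UT and 132, 142.5 and 172 CPM in PGCC. The PGCC range began within that of UT. Its log2 fold change was 0.32 ± 0.10, and all 6 pairs were higher in PGCC by 0.02 to 0.63. The difference was mainly in replicates 1, 2, 3 and 6, which averaged 0.44 against 0.07 in replicates 4 and 5. In UT and UT_LCL the ECE1 levels of replicates 4 and 5 lay above those of all other replicates. Their mean exceeded the mean of the others by 0.33 and 0.47 on the log2 scale. With LCL521 in both populations the log2 fold change was 0.36 ± 0.11, with means of 0.52 and 0.02 in the same replicate sets.

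**Figure D3:**
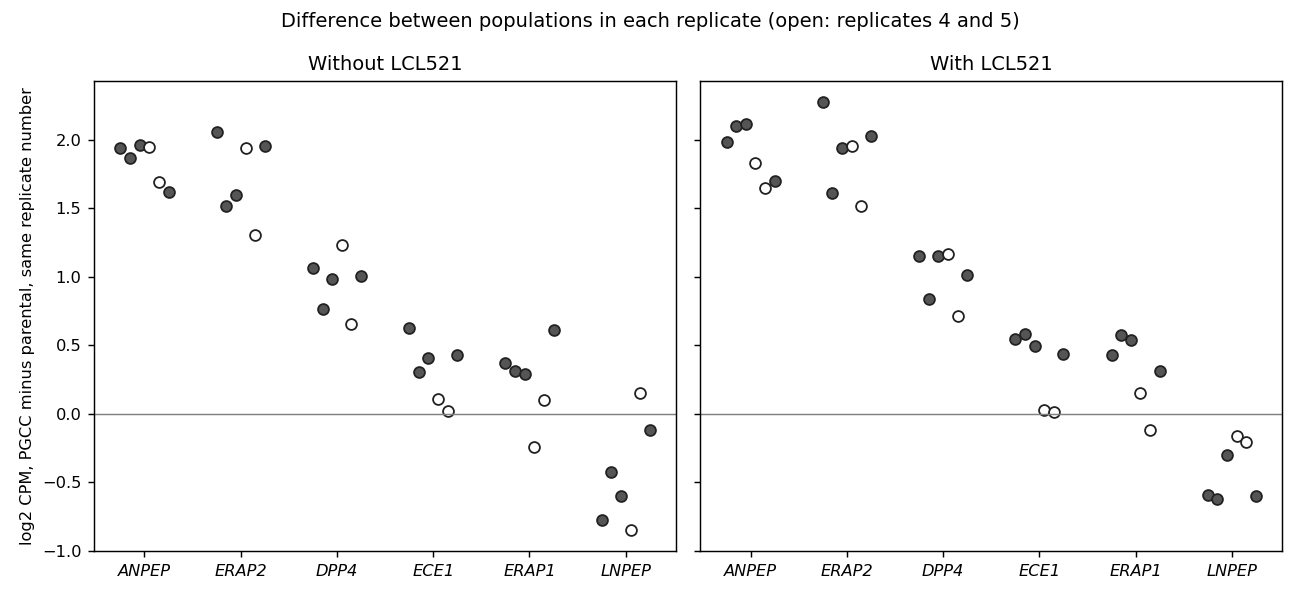
Difference in log2 CPM (pseudocount 0.1) between giant and parental cells of the same replicate number, for the 6 genes that passed the filter on low counts, without LCL521 (left) and with it (right). Each point is 1 pair, and open points are replicates 4 and 5. ANPEP, ERAP2 and DPP4 are above 0 in all pairs, ECE1 is smallest in replicates 4 and 5, and LNPEP is below 0 in 5 of 6 pairs on the left and 6 of 6 on the right.

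ENPEP and MME lay near the limit of detection of 3 counts. In PGCC, ENPEP had 4 to 7 counts in every replicate but 6, which had 0. ENPEP (ENSG00000138792, chr4:111286889-111486441, plus strand, hg19) had 0 to 2 counts per library in UT and 0 to 7 in PGCC. Its counts summed to 6 over the UT libraries (95% exact Poisson interval 2.20 to 13.1) and to 25 over the PGCC libraries (16.2 to 36.9), and to 5 and 23 in UT_LCL and PGCC_LCL. These intervals cover counting error only. MME (ENSG00000196549, chr3:154741913-154901497, plus strand, hg19) had 0 to 4 counts in any library, and sums of 8 in UT (3.45 to 15.8) and 13 in PGCC (6.92 to 22.2). Both genes were removed by the filter on low counts in every comparison, so 6 of the 8 members had a fitted value. At this depth no difference in MME was detectable between the populations.

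As a description only, 4 of the 6 members fitted were past an adjusted p of 0.05 for PGCC against UT, all higher, where 47.4% of 13812 genes tested were called, 23.1% higher and 24.3% lower. Under the replicate block it was 5 of 6, with LNPEP as the lower one, where 56.2% of genes were called, 28.3% of all genes tested as lower. Between the drug-treated populations it was 6 of 6, 5 higher and LNPEP lower, where 48.9% of 13818 genes were called, 25% higher and 23.9% lower (56.3% under the replicate block, with the same count of members). Groups that did not overlap in the higher direction, as for ANPEP, ERAP2 and DPP4, made up 13.9% of genes in PGCC against UT and 14.4% with LCL521. Since measured values of these libraries were known when the members were picked, nothing is read from their counts.

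Per kilobase, ANPEP, DPP4 and ECE1 were the 3 highest members in all conditions. In UT they stood close together at 25.2 ± 1.96, 25.2 ± 4.28 and 23.0 ± 3.04 RPKM (SD, n = 6), with overlapping ranges. In PGCC they separated, to 90.4 ± 6.84, 48.4 ± 4.90 and 28.6 ± 2.92 RPKM, with no overlap between neighbours. ERAP1 followed at 4.12 ± 0.845 RPKM in UT and 4.81 ± 0.606 in PGCC. LNPEP (2.83 ± 0.774) ranked above ERAP2 (1.21 ± 0.369) in UT without overlap. In PGCC the order was the opposite, with ERAP2 at 3.94 ± 0.665 and LNPEP at 2.07 ± 0.461, also without overlap, while ERAP2 and ERAP1 overlapped. The summed RPKM of the 8 genes was 81.6 ± 6.95 in UT and 178 ± 13.7 in PGCC. ANPEP made up 31.1% ± 3.13 of that sum in UT and 50.8% ± 1.43 in PGCC, while the share of ECE1 was 28.2% ± 2.40 in UT and 16.0% ± 0.789 in PGCC. By mean RPKM, ANPEP ranked 2819 of 14555 genes in UT and 671 in PGCC.

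LCL521 was then compared with no drug within each population, a contrast between conditions that share a cell type. In parental cells the log2 fold changes of the 6 fitted members lay between −0.11 ± 0.21 for ERAP2 and 0.07 ± 0.17 for LNPEP (SE, n = 6 per group), each with an adjusted p of 1 by edgeR's quasi-likelihood test. The 95% interval was −0.24 to 0.20 for ANPEP and −0.32 to 0.21 for DPP4. A change of ANPEP as large as its difference between the populations lies far outside the ANPEP interval. The fit had no replicate term, and under the replicate block these intervals were −0.12 to 0.07 and −0.14 to 0.03. In PGCC the log2 fold changes lay between −0.00 ± 0.07 for DPP4 and 0.10 ± 0.11 for ERAP1, again with adjusted p = 1 by edgeR. There the interval was −0.10 to 0.14 for ANPEP and −0.18 to 0.34 for ERAP2. ERAP1 was higher with the drug in 6 of 6 PGCC pairs, by 0.03 to 0.20, with an adjusted p of 0.391 under the replicate block. EdgeR called 0 of the 6 members in either population, with 0 at an unadjusted p under 0.05 with or without the block, and DESeq2 called 0. Among all genes edgeR called 0% of 13277 in parental cells (71 at an unadjusted p under 0.05, and 0 by DESeq2) and 0.00707% of 14151 in PGCC (218 at an unadjusted p under 0.05). Under the replicate block these shares were 0.866% and 1.65%. Acid ceramidase itself (ASAH1) had a log2 fold change of 0.09 ± 0.08 with the drug in parental cells and 0.04 ± 0.06 in PGCC.

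Whether the drug acted differently in the populations was tested as an interaction over all 24 libraries. The member terms lay between 0.02 ± 0.15 for ECE1 and 0.19 ± 0.24 for ERAP2, with 95% intervals of −0.29 to 0.33 and −0.31 to 0.70, and adjusted p was 1 for all 6 by edgeR. Over all 14555 genes edgeR and DESeq2 both called 0%, with 60 and 54 genes at an unadjusted p under 0.05. The terms of ANPEP (0.05 ± 0.12) and DPP4 (0.06 ± 0.15) had intervals of −0.20 to 0.29 and −0.25 to 0.37. Under the replicate block edgeR also called 0% of genes, and these intervals were −0.14 to 0.24 and −0.14 to 0.26.

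**Figure D4:**
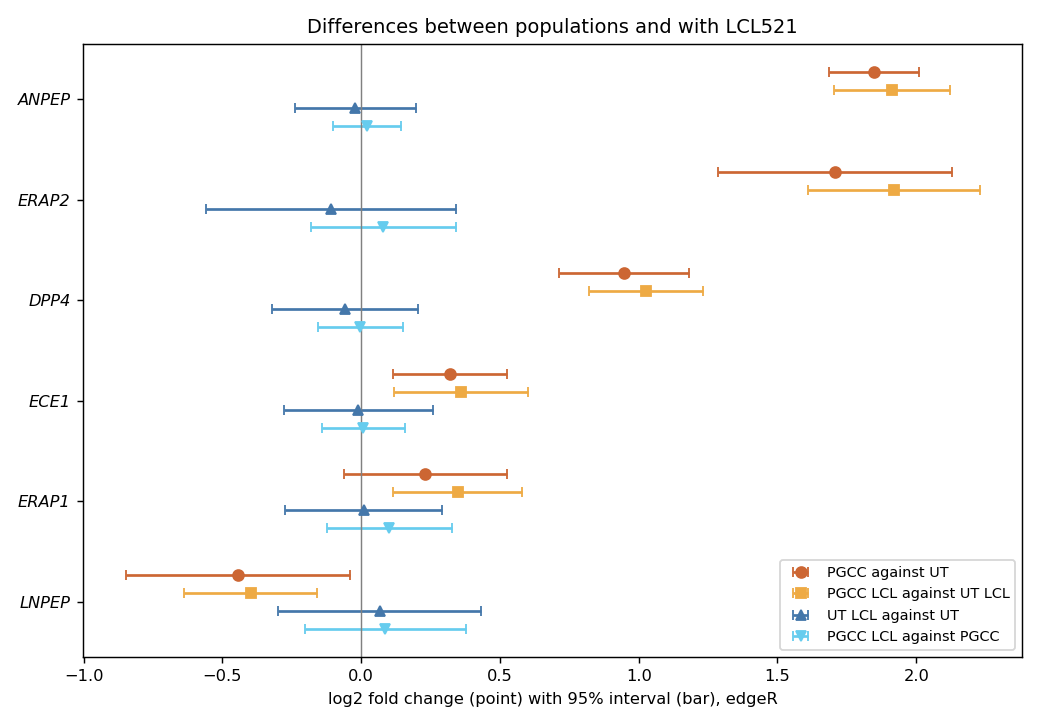
Log2 fold change (horizontal axis; points) with its 95% interval (bars) from edgeR for the 6 fitted genes in 4 comparisons of 6 against 6 libraries. The points of both population comparisons lie to the right of 0 for ANPEP, ERAP2 and DPP4. Since the genes were picked with measured values known, the bars of the population comparisons are a description and not a test. Every drug comparison has an interval that includes 0.

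The genes with levels most like those of the 3 leading members were found over the 24 libraries by the root mean square difference of log2 CPM after centring each gene on its mean, out of 12844 genes averaging 1 CPM or more. For ANPEP they were IDH2, the mitochondrial isocitrate dehydrogenase, at 0.174, ECT2, which acts in cytokinesis, at 0.184, and GLCCI1 at 0.186. ANPEP itself varied by 0.943 on that scale. For ERAP2 the closest were MAN1A1, a Golgi mannosidase, at 0.167, KCNMA1, a potassium channel, at 0.183, and KIF20B, a kinesin, at 0.213. DPP4 was closest to FUT8, which adds core fucose to N-glycans, at 0.104, then to DYNLT3, a dynein light chain, at 0.131, and NPNT, an extracellular matrix protein, at 0.135. Among the members, ECE1 and ERAP1 were the closest pair at 0.154, and ANPEP and ERAP2 the next at 0.331. The measure is small for any genes that vary little, and ECE1 and ERAP1 had log2 fold changes of 0.32 and 0.23 for PGCC against UT. ANPEP and ERAP2 varied by 0.943 and 0.950 on the scale of the measure. These are descriptions over libraries that share replicate runs.

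ERAP1, ERAP2 and LNPEP lie side by side on chromosome 5, and their log2 fold changes differed in size and sign. Within 500 kb of the ERAP2 start 5 genes passed the filter, and CAST and RIOK2 are named here because they are there. CAST, the inhibitor of calpains, rose by 0.67 ± 0.17 on the log2 scale (adjusted p = 0.00503, edgeR). RIOK2, a kinase of ribosome maturation, fell by 0.25 ± 0.10 (adjusted p = 0.0445), a call that was lost under 9 of 15 alternatives, with an adjusted p between 0.0535 and 0.182 in them. With ERAP2 at 1.71, ERAP1 at 0.23 and LNPEP at −0.44, the log2 fold changes had both signs within this stretch. The signs were the same with LCL521 in both populations, at 0.62 for CAST and −0.20 for RIOK2.

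Related genes were followed in 7 lists. Each is given as counts past an adjusted p of 0.05 in PGCC against UT and as the median log2 fold change. For all genes tested the median was −0.03, with 23.1% past the threshold as higher and 24.3% as lower. With LCL521 in both populations the shares were 25% and 23.9%. Under the replicate block 56.2% and 56.3% of all genes were called in these comparisons. The list counts were not tested against such shares. Of 19 other aminopeptidases 17 were tested, 3 rose and 8 fell, with a median of −0.23. DNPEP, the cytosolic aspartyl aminopeptidase, fell by 0.78 ± 0.09 (adjusted p = 8.44e-06), from 83.6 ± 7.80 CPM in UT to 48.5 ± 4.54 in PGCC, without overlap. RNPEPL1 fell by 0.68 ± 0.14 (adjusted p = 0.00144). The rises were small. XPNPEP3, a mitochondrial aminopeptidase, rose by 0.31 ± 0.09 (adjusted p = 0.00776) and C9orf3, aminopeptidase O, by 0.48 ± 0.19 (adjusted p = 0.0487). The C9orf3 call was lost without replicate 1, 2, 3, 4 or 6 (adjusted p from 0.0508 to 0.131) and with no filter on low counts. With LCL521 in both populations 0 of the 17 rose and 8 fell.

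Of 19 dipeptidyl peptidases and dipeptidases 10 were tested, 1 rose and 5 fell, with a median of −0.24. CNDP2, a cytosolic dipeptidase, had the largest fall in that list. It fell by 1.78 ± 0.12 (adjusted p = 1.29e-07), from 46.3 ± 6.50 CPM to 13.4 ± 1.87. PEPD, the prolidase that splits dipeptides ending in proline, fell by 0.54 ± 0.09 (adjusted p = 0.000231). PRCP, a lysosomal serine carboxypeptidase of the DPP7 family, was the gene that rose, by 0.58 ± 0.08 (adjusted p = 2.62e-05). Under LCL521 in both populations 1 rose and 4 fell, and 8 were called under the replicate block.

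Of 12 further endopeptidases of small peptides 7 were tested, 2 rose and 3 fell, with a median of −0.01. PHEX, of the M13 family to which MME and ECE1 belong, rose by 1.67 ± 0.17 (adjusted p = 3.03e-06), from 2.34 ± 0.522 CPM to 7.44 ± 0.944, and PITRM1, a mitochondrial protease, by 0.24 ± 0.07 (adjusted p = 0.0114), a call that was lost with no filter (adjusted p = 0.0802). ECE2, the paralog of ECE1, fell by 0.86 ± 0.14 (adjusted p = 0.000215), from 37.6 ± 8.72 CPM to 20.6 ± 1.68. IDE, the insulin-degrading enzyme, fell by 0.60 ± 0.09 (adjusted p = 7.29e-05). ECE2 was thus lower and without overlap between the groups, where ECE1 was 145.7 ± 14.9 CPM in PGCC and 117 ± 15.5 in UT.

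Of 12 carboxypeptidases 5 were tested, 3 rose and 0 fell by edgeR, with a median of 0.29. CPA4, a secreted carboxypeptidase, rose by 2.76 ± 0.71 (adjusted p = 0.00566), with a range of 0.464 to 25.6 CPM in UT and 34.5 to 163.5 CPM in PGCC. Its pair difference was 5.59 in replicates 4 and 5 and 2.54 in the others. CTSA, the lysosomal cathepsin A, rose by 0.39 ± 0.08 (adjusted p = 0.000792), from 216 ± 21.1 CPM to 282 ± 20.8.

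Of 22 peptide hormones and receptors, the substrates of these enzymes and the proteins that read them, 8 were tested, 3 rose and 2 fell, with a median of −0.03. Of these 8, 6 also passed the filter on low counts between the parental conditions, and 2 of the 3 that rose did not, so they were tested only through their level in PGCC. EDN1, the endothelin precursor on which ECE1 acts, was 1 of them, with 1 to 9 counts in UT and 27 to 203 in PGCC, and no fold is given for it. ATP6AP2, a subunit of the vacuolar proton pump, rose by 0.22 ± 0.08 (adjusted p = 0.0253). EDNRA, a receptor of endothelin, fell by 1.21 ± 0.24 (adjusted p = 0.000858), and BDKRB2, a receptor of bradykinin, by 0.81 ± 0.20 (adjusted p = 0.00449). BDKRB1, the other bradykinin receptor, did not pass, with a log2 fold change of 0.77 ± 0.40 (adjusted p = 0.129). ATP6AP2 and BDKRB1 were chosen after their values were seen. With a minimum of 10 counts in every library 3 of this list were called.

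Of 14 genes of peptide loading on MHC class I, where the products of ERAP1 and ERAP2 go, 10 were tested, 5 rose and 1 fell, with a median of 0.26. NLRC5, a transactivator of class I genes, was among the 5 and passed the filter on low counts only through PGCC, with 0 to 12 counts in UT and 28 to 41 in PGCC, so no fold is given for it. B2M, the light chain of class I molecules, rose by 0.89 ± 0.09 (adjusted p = 2.39e-06), from 375 ± 33.5 CPM to 692 ± 76.6. CANX, the chaperone calnexin, fell by 0.29 ± 0.09 (adjusted p = 0.0198), a call lost without replicate 4 or 5 (adjusted p = 0.0787 and 0.0518), without both (0.133) and when libraries were scaled by their totals (0.082). The summed leukocyte markers given above also did not overlap between UT and PGCC, and their part in these levels was not tested.

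All 8 partners of LNPEP in its vesicles were tested, 1 rose and 2 fell, with a median of −0.23. RAB14 fell by 0.39 ± 0.08 (adjusted p = 0.00125) and RAB10 by 0.30 ± 0.07 (adjusted p = 0.00285), both small GTPases of vesicle traffic. SORT1, the sorting receptor sortilin, rose by 0.42 ± 0.16 (adjusted p = 0.0415), a call lost without replicate 1, 2, 3, 5 or 6 (adjusted p from 0.0521 to 0.104) and with no filter (0.0933). Without replicates 4 and 5 the count of this list was 2 higher and 4 lower. Between the drug-treated populations 0 rose and 2 fell, and 1 was called without replicate 1, 2, 3 or 4.

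For LCL521 itself edgeR and DESeq2 called 0 of the 62 list genes tested in parental cells and 0 of 66 in PGCC, with 0 and 1 at an unadjusted p under 0.05 by edgeR. The interaction also called 0 of 68 by both tools, with 1 at an unadjusted p under 0.05 by edgeR. Under the replicate block CPA4 was lower with the drug in parental cells, by −0.60 ± 0.13 (adjusted p = 0.0445, edgeR). EDNRA was higher, by 0.25 ± 0.05 (adjusted p = 0.046, edgeR). The block called 0.866% of 13277 genes there, and 3 of 13240 genes without replicates 4 and 5. CPA4 was lower in 5 of 6 pairs, from −1.17 to 0.39, and EDNRA was higher in 6 of 6. Without a replicate term the log2 fold changes were −0.58 ± 0.93 and 0.25 ± 0.30, and neither was called.

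**Figure D5:**
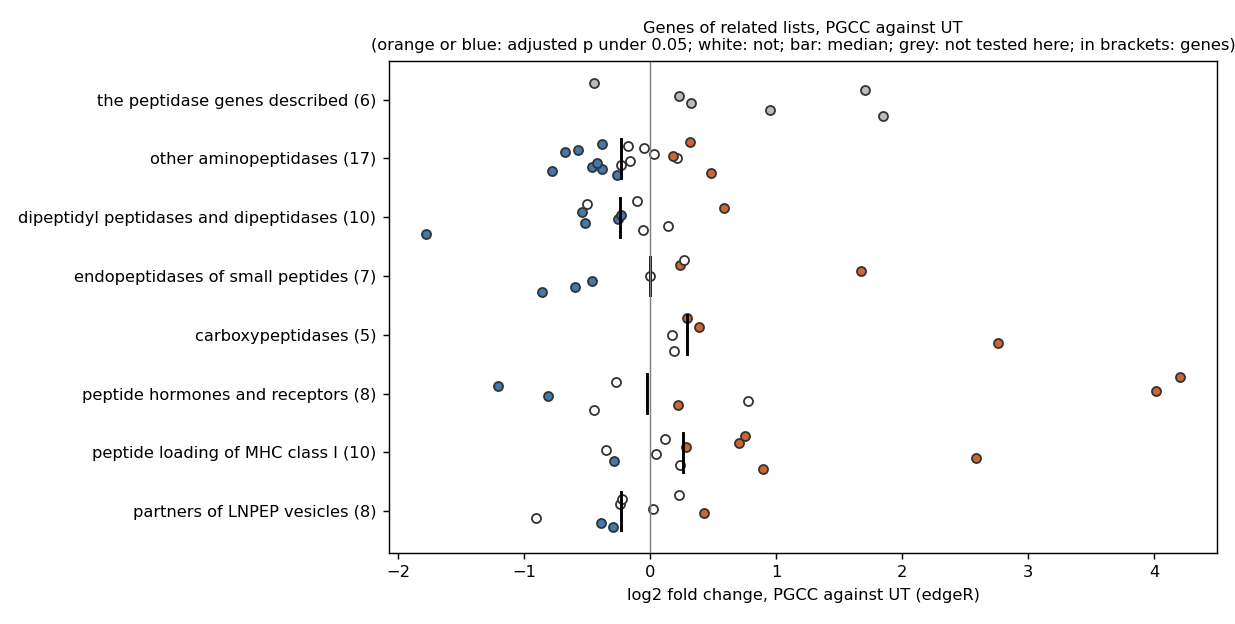
Log2 fold change of each tested gene in PGCC against UT (horizontal axis) for the described peptidase genes (grey, shown without a test) and the 7 related lists, with the number of genes in brackets. Orange points rose and blue points fell at an adjusted p under 0.05, white points did not pass, the 2 largest rises among hormones and the largest in MHC loading passed the filter on low counts only through PGCC, and black bars are list medians, which lie between −0.24 and 0.29.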

How the data were processed

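Total RNA was sequenced. Per the supplementary methods, paired-end reads were aligned with STAR (v2.5) to hg19 and counted per gene with HTSeq (v0.6.1); the submitters' processing notes also name CASAVA and DESeq2. The annotation release and the strand setting are not given in the sources used here. The authors deposited raw read counts for 48162 genes in 24 libraries, which were used as they stand; no per-sample column was left out. CPM and RPKM were computed here.

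Each comparison was fitted with edgeR 4.0.16 (limma 3.58.1, R 4.3.3): filterByExpr (minimum count 10, minimum total 15), TMM, and the quasi-likelihood test on the 12 libraries of 2 conditions (all 24 for the interaction), with Benjamini-Hochberg adjustment over all genes and a threshold of 0.05. The SE is the size of the log2 change divided by the square root of F. DESeq2 1.42.0, other scalings and filters, the replicate block and left-out replicates were alternatives. The test was checked on simulated counts.

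The 8 genes, the related lists and the tests were chosen with earlier results of these data known. Named from each list were the 2 largest rises and 2 largest falls past the threshold with 1 direction in all 6 pairs, and for each of the 3 members with the largest differences the 3 genes nearest in level. Genes that these rules or the marker lists name but that are withheld are not reported here. PECAM1 was not found in the table. Libraries of 1 condition differed by more than counting noise (chi-square per degree of freedom 5.05 to 120.1 over 60 pairs). Same-numbered libraries deviated together from their group means in every comparison (lowest correlation 0.171 over the 4 pairings of conditions). A library deviated most like the one of its own number in 6 of 6 cases in both drug comparisons. That held for 5 of 6 in PGCC against UT and 3 of 6 in PGCC_LCL against UT_LCL. The series' design also describes parallel harvests, so the numbers were taken as pairs for the pair differences and the replicate block. The main fit had no replicate term.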

Additional observations from a re-analysis of the deposited data

How the results depend on the processing

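Of 444 member values under the alternatives, 428 kept their side of the threshold, 7 came to pass it and 9 no longer passed it. Of the called values 0 changed sign. ANPEP ranged from 1.82 to 1.94 for PGCC against UT, ERAP2 from 1.63 to 1.80 and DPP4 from 0.89 to 1.04. The sign of uncalled drug effects changed in 9 of 90 values in parental cells, 11 of 90 in PGCC and 6 of 84 for the interaction. Those sign changes are among the 428. For PGCC against UT, LNPEP also passed the threshold in the fit of all 24 libraries (−0.45). It passed as well without replicates 4 and 5 (−0.48) and without replicate 5 (−0.54). ERAP1 passed without replicates 4 and 5 (0.40), and ECE1 no longer passed without replicate 1 (0.25) or 3 (0.30). Of all genes, 7287 of 14555 passed in the fit of all 24 libraries and 7543 of 13809 without replicates 4 and 5. Without replicate 1, 3 or 5, 5529 of 13891, 5542 of 13828 and 6129 of 13810 passed. With LCL521 in both populations ECE1 no longer passed without replicate 1, 2 or 6 (0.31 to 0.33). ERAP1 no longer passed without replicate 1, 2 or 3 (0.29 to 0.32) or with no filter (0.30). Of all genes, 6031 of 13915, 5831 of 13869 and 5734 of 13823 passed without replicate 1, 2 or 3. Without replicate 6 it was 6329 of 13817, and with no filter 8035 of 29659. Nothing is read from these single calls. The replicate block changed the LNPEP call for PGCC against UT and no other member call. With LCL521 against none in parental cells, the 0 genes called became 115 under the block and 3 under the block without replicates 4 and 5. In PGCC the 1 gene called became 6 by DESeq2, 234 under the block, 129 under the block without replicates 4 and 5, 0 without those replicates, and 0 in the fit of all 24 libraries, and 0 to 1 when single replicates were left out; the cause was not tested. Scaling by library totals put 60.2% of called genes in the higher direction for PGCC against UT, where TMM gave 48.7%. Of 371 values of named genes outside the 8, 345 kept their call. Depth limits ENPEP and MME, which had at most 7 counts per library.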
